A study of Mus musculus with 13 samples.

Results

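Genes for MHC class I presentation were followed in CD45− thymic stroma of mice before and after total body irradiation (TBI). The 10 genes were chosen by name for their roles in the pathway, out of 53379 genes in the count matrix: the heavy chains H2-K1 and H2-D1, the light chain B2m, the peptide transporter subunits Tap1 and Tap2, the loading complex members Tapbp, Calr and Pdia3, the peptidase Erap1 and the transactivator Nlrc5. All 10 were among the 19984 genes that passed the filter on low counts. The mice were 2-month-old wild-type C57BL/6 animals. Steady state was covered by 4 bulk RNA-seq libraries, and days 1, 4 and 7 after a sublethal dose of TBI by 3 per day, all from cells depleted of CD45+ cells with magnetic beads and then sorted. The labels call the steady-state mice untreated, whereas the matrix columns name them as PBS controls. They are given below always in the same order, as PBS day 1 replicate 2, PBS day 4 replicate 2, PBS day 7 replicate 1 and PBS day 7 replicate 2, and the libraries after TBI are given in the order of their replicate numbers.

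MHC class I molecules display peptides from inside the cell to CD8+ T cells. The proteasome cuts proteins into peptides, TAP carries these into the endoplasmic reticulum (ER), and there ERAP1 trims them and the loading complex of tapasin, calreticulin and ERp57 places them onto a heavy chain bound to β2-microglobulin. In the thymus, class I on cortical and medullary epithelial cells takes part in the selection of CD8+ thymocytes, and interferons and NLRC5 are known to raise transcription of the pathway in many tissues.

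Expression is given as CPM, the share of a gene in the normalized library. Total counts per library ran from 15721866 to 52056896, and each of the 10 chosen genes had between 230 and 292080 counts in a library. Some other genes named below had fewer. Genes with an adjusted p-value of 0.05 or less in edgeR's quasi-likelihood test, adjusted over all genes tested, were counted as changed, and errors of log2 fold changes are SEs. The study's methods call the libraries biological replicates. Whether each held 1 mouse or a pool is not given in the sources used here, so p-values measure the spread between these libraries.

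Among the libraries, day 1 replicate 1 stood apart. Its short genes read high against its long genes, by 1.06 between the medians of the shortest 20% and the longest 20% of genes on the log2 scale, whereas the 4 steady-state libraries lay between -0.38 and 0.39. Replicates 2 and 3 of day 4 had 0.66 and 0.58. Column names end in tags that start with k3, kk or neither, and every condition held more than 1 of these families. Stromal markers were present throughout, with summed levels of 20914 to 149536 CPM for 11 fibroblast genes and 1127 to 1649 for 10 endothelial genes. Both ends of the fibroblast range were steady-state libraries, PBS day 1 replicate 2 and PBS day 4 replicate 2, so the steady-state group was uneven in these markers. Epithelial and nonstromal markers differed between the conditions. The sum of 5 genes of epithelial cells was 783 to 2740 CPM at steady state, 1492 to 2354 at day 1, 2520 to 3383 at day 4 and 698 to 1158 at day 7. These genes did not all move alike. The mean of Epcam was 83.6 CPM at steady state and 49.9 at day 4. That of the MHC class II gene H2-Aa was 447 and 778 CPM, and the libraries overlapped for both genes. The sum of 14 thymocyte genes was 295 to 929 CPM at steady state, 138 to 177 at day 1, 32.5 to 49.0 at day 4 and 259 to 5931 at day 7. The sum of 8 erythroid genes fell to between 10.4 and 15.2 CPM at day 4, from 21387 to 36997 at steady state, and all 8 were called lower. The sum of 13 leukocyte genes was 177 to 630.0 CPM at steady state, 199 to 343 at day 1, 116 to 175 at day 4 and 127 to 2054 at day 7. The part of these cells in the results below was not tested. In some fits the thymocyte score, the mean log2 CPM of the 14 thymocyte genes, was added as a covariate. It ran from 0.20 to 1.10 at day 4 and from 2.77 to 3.18 at day 1. At steady state it was 3.98 to 5.46, and at day 7 it was 3.84 to 8.19. Only steady state and day 7 overlapped, so in other comparisons this covariate cannot tell thymocyte content from the condition.

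The promoters of H2-K1, H2-D1, B2m and Tap1 are shown because the chains had every library of day 4 above steady state and Tap1 rose at day 1. Windows from RefSeq on GRCm38.p6 were at hand for 8 of the 10 genes, of 250 bases before to 50 after the start of the transcript. The 250 bases before the start are printed 5′ to 3′ on the strand of the gene, with matches to 4 motifs in capitals. These are the interferon-stimulated response element (ISRE, GAAANNGAAA), the CCAAT box (CCAAT), the X2 box of the type bound by CREB factors (TGACG) and the NF-kappaB motif, each searched on both strands. For H2-K1, which has 2 starts in RefSeq, the window that ends at the start of the GENCODE gene is printed. The start of H2-D1 in RefSeq lies downstream of the first base of its GENCODE gene.
H2-K1 (chr17:34000348-34000597, minus strand): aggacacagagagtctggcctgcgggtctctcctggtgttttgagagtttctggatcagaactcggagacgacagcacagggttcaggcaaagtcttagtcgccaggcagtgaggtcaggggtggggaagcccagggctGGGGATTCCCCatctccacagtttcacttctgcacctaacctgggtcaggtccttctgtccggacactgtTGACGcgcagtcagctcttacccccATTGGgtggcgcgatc
H2-D1 (chr17:35262844-35263093, plus strand): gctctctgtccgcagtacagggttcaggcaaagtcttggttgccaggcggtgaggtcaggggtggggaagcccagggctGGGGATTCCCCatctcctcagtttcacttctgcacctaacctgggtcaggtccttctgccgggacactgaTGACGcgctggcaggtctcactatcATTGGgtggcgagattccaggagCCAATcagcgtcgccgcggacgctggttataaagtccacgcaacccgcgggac
B2m (chr2:122147437-122147686, plus strand): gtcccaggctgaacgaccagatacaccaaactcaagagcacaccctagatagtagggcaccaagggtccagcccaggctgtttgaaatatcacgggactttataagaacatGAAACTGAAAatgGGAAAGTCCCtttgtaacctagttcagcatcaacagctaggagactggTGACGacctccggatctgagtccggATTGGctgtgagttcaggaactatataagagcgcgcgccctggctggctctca
Tap1 (chr17:34187306-34187555, plus strand): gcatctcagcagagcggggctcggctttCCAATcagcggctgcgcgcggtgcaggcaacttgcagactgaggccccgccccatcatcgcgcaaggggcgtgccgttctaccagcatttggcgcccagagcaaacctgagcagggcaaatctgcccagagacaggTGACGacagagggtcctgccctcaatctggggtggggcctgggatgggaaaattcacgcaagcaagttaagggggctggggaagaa
In H2-K1, H2-D1 and B2m, an X2 box was followed by a reversed CCAAT box whose start lay 25 bases downstream of the start of the X2 box. That spacing, which was noticed in these sequences and then counted, was found in 0.0578% of all 32851 windows. The NF-kappaB motif occurred in 8.46% of all windows, and B2m, Calr and both heavy chains held it. In both heavy chains it matched at 2 overlapping positions, each on both strands. An ISRE was found in B2m and Erap1, against 3.44% of windows, and overlapped no other motif in B2m. Only these exact letters were searched. A window without a match, such as those of the heavy chains, may still hold an interferon response element with other letters. The TGACG box was found in 20.8% of windows and in 5 of the 8 genes, Tap1 and Pdia3 included. The CCAAT box was found in 37.4% of windows and in 7 of the 8, all but Erap1. The ER stress element (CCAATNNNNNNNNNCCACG), held by 0.119% of windows, was found only in Calr, where it contains a CCAAT box. No window of the 8 held a GAS motif (TTCNNNGAA), which 8.3% of all windows have, so these letters were not in the windows searched.

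At steady state, the members spanned a wide range of levels. Compared per length as TPM, in which counts are divided by the exonic length of the gene, B2m stood highest at 7858 ± 1415 (mean ± SD, n = 4), followed by H2-D1 at 3816 ± 461 and H2-K1 at 2260 ± 264. Pdia3 (1471 ± 274), Calr (1301 ± 313) and Tapbp (970 ± 151) followed, and neighbours among these 3 overlapped between libraries. Tap2 had 157 ± 35.7 TPM, Tap1 70.6 ± 18.0, Erap1 43.6 ± 7.62 and Nlrc5 7.03 ± 4.32, and at steady state no libraries of neighbours in this order overlapped other than those of Pdia3, Calr and Tapbp. Thus the chains of the class I molecule were the most abundant transcripts of these 10 genes and the transactivator the least. At day 1, Tap1 and Tap2 overlapped, at 214 ± 47.3 and 284 ± 58.7 TPM (n = 3).

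**Figure D1:**
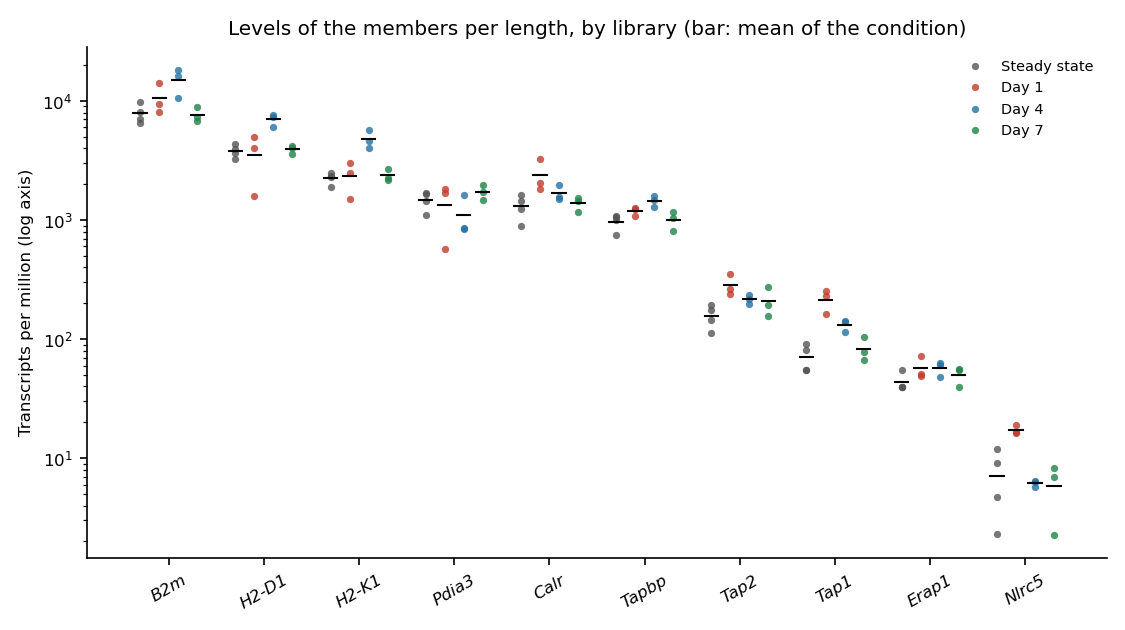
Levels per length of the 10 members in each of the 13 libraries, in TPM on a log axis, coloured by condition, with a bar at the mean of each condition. B2m lay highest and Nlrc5 lowest in every condition, and the means of Tap1 rose from 70.6 at steady state to 214 at day 1.

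The first question was which members changed at day 1 after TBI. Tap1 and Tap2, which encode both subunits of the peptide transporter, rose, and the other 8 did not pass the test. Thus 2 of 10 members were called higher, against 1.68% of all genes tested. In 4 of the 10 (Tap1, Tap2, Tapbp and Nlrc5) all libraries of day 1 lay above all of steady state, against 7.25% of all genes. The median log2 fold change of the members was 0.51, that of all genes -0.10.

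Tap1 (ENSMUSG00000037321, GRCm38 chromosome 17, 34187553 to 34197225, plus strand) had 157, 113, 133 and 103 CPM at steady state and 334, 432 and 445 CPM at day 1. All libraries of day 1 were more than 2-fold above the highest steady-state library, and the log2 fold change was 1.67 ± 0.35 (edgeR, adjusted p = 0.000622). Within tag families, replicates 2 and 3 of day 1 stand beside PBS day 1 replicate 2 and PBS day 7 replicate 1, and replicate 1 beside PBS day 7 replicate 2, and in each family day 1 was higher. The log2 fold change was 1.82 with the thymocyte score added as a covariate (adjusted p = 0.00193), and 1.80 without day 1 replicate 1 (adjusted p = 0.000600). Tap1 was called in all 20 alternative settings, with log2 fold changes from 1.59 to 1.84. Of its exon bases, 3.87% overlap other genes. Its transcripts share the most 50-base stretches with those of Psmb9, which lies head to head with Tap1.

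Tap2 (ENSMUSG00000024339, chromosome 17, 34203527 to 34216321, plus strand) had 210, 160.0, 222 and 187 CPM at steady state and 501, 308 and 322 CPM at day 1. Replicate 1 of day 1 was the highest, and the groups did not overlap. The log2 fold change was 0.95 ± 0.29 (edgeR, adjusted p = 0.0416), and 0.70 without day 1 replicate 1 (adjusted p = 0.178). The call was also lost without PBS day 4 replicate 2, either PBS day 7 library, or replicate 2 or 3 of day 1 or of day 4, without the filter on low counts, and in a fit of only both conditions, with adjusted p-values up to 0.178. Other genes overlap 18.5% of its exon bases, and counting did not use the strand.

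Nlrc5 (ENSMUSG00000074151, chromosome 8, 94434356 to 94527272, plus strand), the transactivator of class I genes, had 32.0, 7.30, 23.3 and 13.7 CPM at steady state and 60.6, 48.0 and 44.5 CPM at day 1. The groups did not overlap, but the steady-state libraries differed over 4-fold among themselves. Its log2 fold change of 1.42 ± 0.52 did not pass the test (edgeR, adjusted p = 0.123). It did pass with DESeq2 (adjusted p = 0.0241), with the thymocyte score as a covariate (2.27, adjusted p = 0.00872), and without PBS day 1 replicate 2 (1.84, adjusted p = 0.0477). Of the 13 leukocyte markers, the macrophage gene Cd68 had all libraries of day 1 above steady state (7.94 to 10.6 CPM against 2.47 to 6.36), and Ptprc and Coro1a had all below, with means of 13.5 against 71.7 CPM and of 16.0 against 74.0 CPM. The means of the myeloid genes Tyrobp, S100a8 and S100a9 were higher at day 1 (4.19, 7.58 and 7.77 CPM) than at steady state (2.18, 3.46 and 2.35 CPM), with overlap. Csf1r and Lyz2, more abundant myeloid genes of the same list, did not have higher means at day 1. The myeloid genes of the list thus did not rise as a set. The part of these leukocyte markers in the level of Nlrc5 was not tested.

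Neither heavy chain passed the test at day 1. H2-K1 (ENSMUSG00000061232, chromosome 17, 33996017 to 34000347, minus strand) had 2062, 1837, 1800 and 2089 CPM at steady state and 1481, 2213 and 2544 CPM at day 1. H2-D1 (ENSMUSG00000073411, chromosome 17, 35262730 to 35267499, plus strand) had 3559, 3161, 3079 and 3197 CPM at steady state and 1542, 3554 and 4180 CPM at day 1. For both, replicate 1 of day 1 was below every steady-state library and replicate 3 above every one, and the log2 fold changes were 0.09 ± 0.25 and -0.07 ± 0.31 (adjusted p = 0.875 and 0.931). The heavy chains share 50-base stretches with other class I genes, 9.63% of those of H2-K1 and 12.8% of those of H2-D1, and reads that align to several genes were left out of the counts.

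The light chain B2m (ENSMUSG00000060802, chromosome 2, 122147686 to 122153083, plus strand), whose protein every class I heavy chain of this kind needs, had 2655, 2266, 1705 and 2342 CPM at steady state and 4620.0, 2381 and 2611 CPM at day 1. Only replicate 1 was clear of steady state, and the log2 fold change was 0.52 ± 0.32 (adjusted p = 0.403). This is the same library in which both heavy chains were at their lowest. Per library, the log2 ratio of H2-K1 to B2m was -1.64 in day 1 replicate 1 and between -0.36 and 0.08 at steady state.

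In the loading complex, values at day 1 were mixed. Tapbp (ENSMUSG00000024308, chromosome 17, 33915899 to 33929292, plus strand), which encodes tapasin, the bridge between TAP and the heavy chain, had 780.0, 1327, 1049 and 1115 CPM at steady state and 1338, 1396 and 1342 CPM at day 1. The lowest library of day 1 was only just above the highest of steady state (log2 fold change 0.35 ± 0.25, adjusted p = 0.481). Other genes overlap its exons, and 23.2% of the 50-base stretches of its transcripts are also found in those of other genes.

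Calr (ENSMUSG00000003814, chromosome 8, 84841850 to 84846934, minus strand), which encodes the chaperone calreticulin, had 809, 1737, 1084 and 1417 CPM at steady state and 3530, 2019 and 1700.3 CPM at day 1. The groups overlapped, and the log2 fold change was 0.94 ± 0.37 (adjusted p = 0.155). Pdia3 (ENSMUSG00000027248, chromosome 2, 121413775 to 121438687, plus strand), which encodes the disulfide isomerase ERp57, had 1083, 1950, 1369 and 1791 CPM at steady state and 678, 1943 and 1696 CPM at day 1. Thus replicate 1 of day 1 had the highest Calr and the lowest Pdia3 of all 13 libraries, and the log2 fold change of Pdia3 was -0.11 ± 0.39 (adjusted p = 0.917).

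Erap1 (ENSMUSG00000021583, chromosome 13, 74639568 to 74693201, plus strand), which trims peptides to the length that class I binds, had 91.6, 108, 121 and 98.5 CPM at steady state and 201, 128 and 115 CPM at day 1. Replicates 1 and 2 lay above steady state and replicate 3 within it (log2 fold change 0.50 ± 0.24, adjusted p = 0.254). Of its exon bases, 11.5% overlap those of other genes, and its transcripts share sequence with those of Cast.

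**Figure D2:**
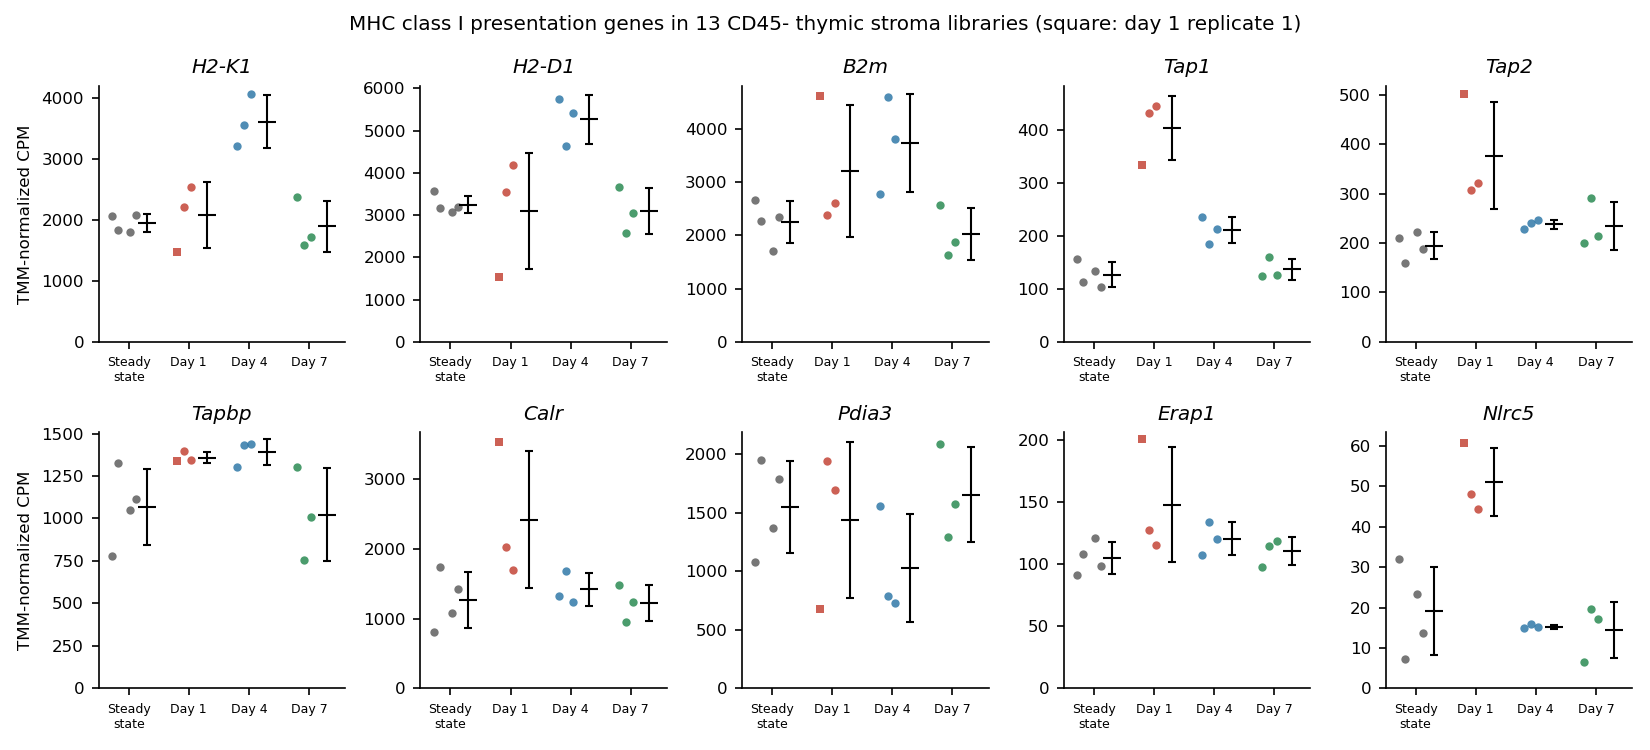
Normalized expression of the 10 members (CPM, vertical axes from 0) in each library by condition, with the mean and SD beside the points (n = 4 at steady state, n = 3 at days 1, 4 and 7). The square marks day 1 replicate 1, which had the lowest H2-K1, H2-D1 and Pdia3 and the highest B2m, Tap2, Calr, Erap1 and Nlrc5 of the 13 libraries.

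At day 4, no member was called by edgeR, against 0.29% of all genes, while 4 had an unadjusted p under 0.05 and DESeq2 called 2 (H2-K1 and Tap1). The values nevertheless had another order than at day 1. In 5 of 10 members (H2-K1, H2-D1, B2m, Tap1 and Tap2) all libraries of day 4 lay above all of steady state, against 6.44% of all genes. The median log2 fold change of the members was 0.34, that of all genes -0.13. In bulk samples, fewer cells of a type and less RNA per cell cannot be told apart.

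H2-K1 had 3214, 3565 and 4071 CPM at day 4, the highest of any condition, with a log2 fold change of 0.89 ± 0.30 against steady state (edgeR, adjusted p = 0.168; DESeq2, adjusted p = 0.00337). H2-D1 had 5755, 4634 and 5407 CPM (0.70 ± 0.34, edgeR adjusted p = 0.362). B2m had 2765, 4597 and 3814 CPM (0.73 ± 0.34, edgeR adjusted p = 0.343). All 3 chains of the class I molecule were thus above their steady-state range in all 3 libraries of day 4, with no call by edgeR. When the thymocyte score was added as a covariate, H2-K1 had a log2 fold change of 0.42, H2-D1 of 0.25 and B2m of 0.27, with adjusted p-values of 0.667, 0.865 and 0.846. The score did not overlap between day 4 and steady state, so this fit cannot tell thymocyte content from the day. The sum of 8 genes of medullary epithelial cells was 1363 to 1758 CPM at day 4, above the 429 to 1265 CPM of steady state. At day 7 it was 327 to 512 CPM. These genes did not move as a set. Krt5 had the largest change, from a mean of 298 CPM at steady state to 1102 at day 4. The means of Itgb4, Ccl21a and Ly6d were also higher at day 4, whereas those of Aire, Fezf2, Krt14 and Cd80 were lower. Sums of 8 cortical genes (1797 to 3683 CPM at day 4, 1146 to 2490 at steady state) and of the 5 epithelial genes overlapped between day 4 and steady state. Their part in the levels of the chains was not tested.

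Values of the transporter genes at day 4 lay between those of day 1 and those of steady state. Tap1 had 235, 185 and 213 CPM at day 4 (0.73 ± 0.25 against steady state, edgeR adjusted p = 0.176; DESeq2 adjusted p = 0.00388), and Tap2 228, 240.4 and 246 CPM (0.29 ± 0.23, edgeR adjusted p = 0.556). Nlrc5 had 14.8, 15.8 and 15.1 CPM, within the steady-state range, and its log2 fold change was -0.33 ± 0.46 (adjusted p = 0.756).

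Tapbp had 1301, 1435 and 1439 CPM at day 4, and Calr 1330.0, 1686 and 1241 CPM. Pdia3 had 1557, 790.0 and 729 CPM, and replicates 2 and 3, in which short genes read high, were below every steady-state library. Erap1 had 108, 134 and 120 CPM. The log2 fold changes of these 4 genes lay between -0.59 and 0.38, and none passed the test (edgeR, adjusted p of 0.482 or higher).

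At day 7, the values of the members lay in the range of steady state or overlapped it. No member was called by edgeR or DESeq2 and none had an unadjusted p under 0.05, and edgeR called 0.005% of all genes. For each of the 10 members the libraries of day 7 and steady state overlapped, whereas 7.49% of all genes did not overlap. The log2 fold changes ran from -0.40 (Nlrc5) to 0.27 (Tap2), with SEs of 0.21 to 0.46, so smaller shifts could not be seen in 3 against 4 libraries.

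H2-K1 had 2380, 1586 and 1724 CPM at day 7, H2-D1 3665, 2576 and 3057 CPM, and B2m 2567, 1630.1 and 1864 CPM. Replicate 1 was the highest for all 3 chains. It was also the library with the lowest summed thymocyte markers of day 7, at 259 CPM against 5931 and 2560 in replicates 2 and 3. Tap1 had 124, 159 and 126 CPM, and Tap2 201, 290.2 and 214 CPM. Replicate 2 was the highest for both. Nlrc5 had 6.50, 19.6 and 17.3 CPM, Tapbp 1303, 754 and 1009 CPM, Calr 1476, 954 and 1233 CPM, Pdia3 2092, 1295 and 1579 CPM, and Erap1 97.7, 114 and 119 CPM. The 3 genes of the loading complex thus had the same order of replicates as the chains.

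**Figure D3:**
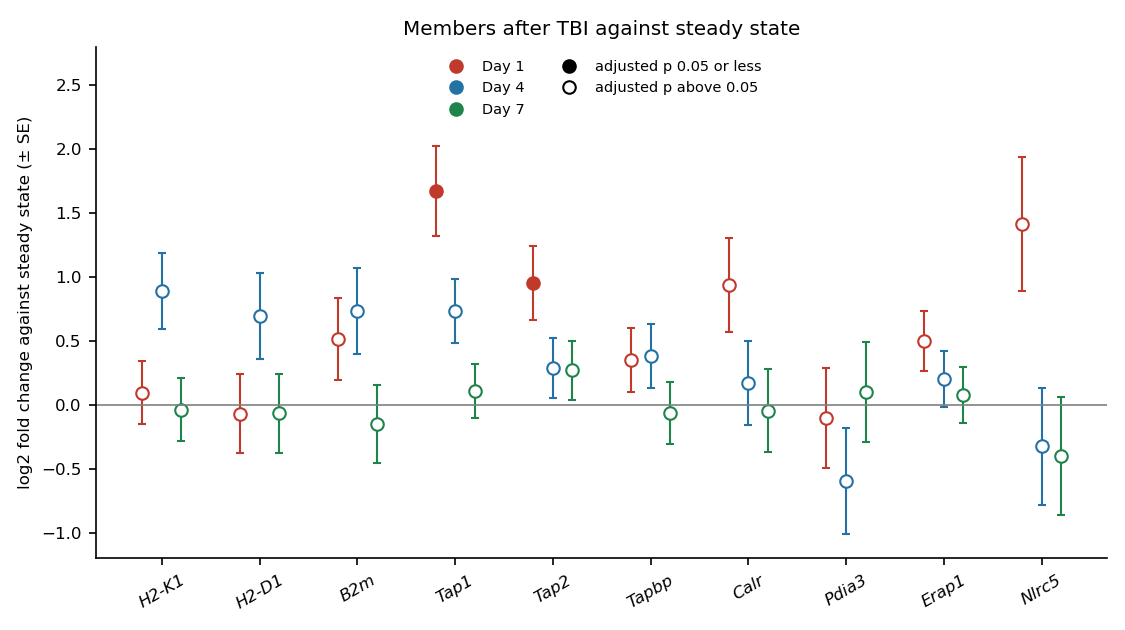
Log2 fold changes (± SE) of the 10 members at days 1, 4 and 7 against steady state, with filled points at an adjusted p of 0.05 or less in edgeR. Only Tap1 (1.67) and Tap2 (0.95) at day 1 are filled, and the 3 chains H2-K1, H2-D1 and B2m lie higher at day 4 (0.89, 0.70 and 0.73) than at day 7.

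The days after TBI were also compared with each other, comparisons that share the libraries of day 1 with those above. From day 1 to day 7, Tap1 and Nlrc5 fell, so that 2 of 10 members were called lower, against 4.45% of all genes, and 5 of 10 had libraries all below those of day 1, against 14.8%. For Tap1 the log2 fold change was -1.56 ± 0.35 (edgeR, adjusted p = 0.00242), and all 22 alternatives called it. The log2 fold change of Nlrc5 was -1.82 ± 0.60 (edgeR, adjusted p = 0.0385). With the thymocyte score as a further term it was -3.50 (adjusted p = 0.0186). Its call was lost with the tag family as a covariate (-1.33, adjusted p = 0.149), and without any single library of day 1 or day 7 or replicate 2 or 3 of day 4, with adjusted p-values up to 0.105. Only the kk family is found at both days with 1 library each, in which Tap1 had 334 CPM at day 1 and 126 at day 7, and Nlrc5 60.6 and 17.3 CPM. All 3 libraries of day 7 also carry m0 in the tag, which no other library has, and this cannot be told apart from day 7.

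From day 1 to day 4, edgeR called none of the members, against 1.43% of all genes in either direction and 1.07% lower, while 6 had an unadjusted p under 0.05 and DESeq2 called 3 (H2-K1 higher, Tap1 and Nlrc5 lower). Members moved in both directions. H2-K1 and H2-D1 had all libraries of day 4 above those of day 1 (log2 fold changes 0.80 ± 0.31 and 0.77 ± 0.36), as 12.6% of all genes did. Tap1, Tap2, Calr and Nlrc5 had all libraries below (between -1.74 and -0.66), as 13.7% of all genes did. For Tap1 the adjusted p was 0.0614 (log2 fold change -0.94 ± 0.28). For Nlrc5 (-1.74 ± 0.59) it was 0.116 in edgeR, and 0.0496 without PBS day 4 replicate 2.

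From day 4 to day 7, edgeR again called no member, against 3.9% of all genes, while 4 had an unadjusted p under 0.05 and DESeq2 called 2 (H2-K1 and Tap1, both lower). H2-K1, H2-D1, B2m and Tap1 had all libraries of day 7 below those of day 4, as 14% of all genes did. H2-K1 had the largest shift of these, -0.93 ± 0.32 (edgeR, adjusted p = 0.0693), and passed the test without PBS day 1 replicate 2, day 1 replicate 1 or day 7 replicate 1 (adjusted p = 0.0471, 0.0416 and 0.0353). With the thymocyte score as a covariate it was -0.28 (adjusted p = 0.852), but the score did not overlap between these days, so this fit cannot tell them apart. The summed thymocyte markers rose between these days, and all 14 were called higher.

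Ratios within a library do not depend on its scaling. The log2 ratio of the CPM of H2-K1 to that of H2-D1 was -0.74 ± 0.08 at steady state (SD, n = 4), -0.54 ± 0.26 at day 4 and -0.72 ± 0.10 at day 7 (n = 3). At day 1 it was -0.49 ± 0.37, with -0.06 in replicate 1 as the highest. The libraries of steady state and day 7 thus overlapped in this ratio. The log2 ratio of Tap1 to Tap2 was -0.63 ± 0.20 at steady state and -0.77 ± 0.09 at day 7. It was 0.49 and 0.46 in replicates 2 and 3 of day 1, but -0.58 in replicate 1, and -0.18 ± 0.21 at day 4. The 2 transporter subunits therefore did not rise in one proportion in all libraries of day 1. Relative to Calr, Tap1 was at -3.28 ± 0.73 at steady state and -2.52 ± 0.78 at day 1, with overlap.

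Other genes of the pathway and around it, the interferon response and class II among them, were taken from lists. These lists were chosen with earlier results of these data known. Of 99 genes tested in 7 lists, 22 were called higher at day 1, against 1.68% of all genes tested, and none lower. None was called at days 4 or 7 by edgeR, where 0.29% and 0.005% of all genes were called. At these days 24 and 19 had an unadjusted p under 0.05, and DESeq2 called 8 and 7. The interferon response list held most of the day 1 calls, with 13 of 15 higher (median log2 fold change 2.76, all genes -0.10). Ifit3, which encodes an antiviral protein, rose from 69.4 ± 7.99 CPM (SD, n = 4) to 1764 ± 881 at day 1 (n = 3, log2 fold change 4.67 ± 0.77, edgeR adjusted p = 2.29e-05). Mx1, an antiviral GTPase, rose from 2.69 ± 1.58 to 60.7 ± 30.7 CPM (4.49 ± 0.97, edgeR adjusted p = 0.000916), and the chemokine gene Cxcl10 from 39.5 ± 33.2 to 710.0 ± 379 CPM (4.17 ± 0.90, edgeR adjusted p = 0.000916). Cxcl9 and Socs1 did not pass the test (0.74 ± 0.32 and 0.81 ± 0.87). The Ifit3 mean was 96.7 CPM at day 4 and 65.4 at day 7.

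Among 18 class I regulators tested, 3 were called higher at day 1, among them Stat2 and Irf9, which encode transcription factors of interferon signalling. Stat2 rose from 86.8 ± 24.5 to 304 ± 24.5 CPM (log2 fold change 1.81 ± 0.39, edgeR adjusted p = 0.000916) and Irf9 from 108 ± 12.8 to 272 ± 92.3 CPM (1.33 ± 0.33, edgeR adjusted p = 0.00663). The median of this list was -0.03, and Irf1, Rfx5 and Ciita had log2 fold changes of 0.29, -0.38 and -0.57 without a call.

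Of the 12 genes tested for peptide supply, 3 were called higher at day 1. Psmb8 and Psmb10 encode catalytic subunits of the immunoproteasome, and Psme2 encodes a subunit of its activator. Psmb8 rose from 121 ± 11.1 to 358 ± 119 CPM (log2 fold change 1.56 ± 0.37, edgeR adjusted p = 0.00352), Psmb10 from 110.2 ± 17.8 to 295 ± 137 CPM (1.42 ± 0.39, edgeR adjusted p = 0.0166) and Psme2 from 116 ± 14.0 to 258 ± 121 CPM (1.15 ± 0.34, edgeR adjusted p = 0.0393). Psmb9, another catalytic subunit and the neighbour of Tap1, had 79.4 ± 16.9 CPM at steady state and 130 ± 41.7 at day 1 (0.72 ± 0.29, adjusted p = 0.161), and its mean at day 4 was 155 ± 22.1 CPM. Replicate 1 of day 1 was the highest in all 4 genes. The count of this list fell to 1 without day 1 replicate 1, PBS day 7 replicate 1 or PBS day 7 replicate 2.

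Of 18 other class I chains tested, H2-T22 and H2-T24, nonclassical genes of the T region, were called higher at day 1. H2-T22 rose from 85.2 ± 17.0 to 379 ± 143 CPM (log2 fold change 2.16 ± 0.45, edgeR adjusted p = 0.000554) and H2-T24 from 7.24 ± 2.63 to 44.0 ± 19.6 CPM (2.60 ± 0.57, edgeR adjusted p = 0.00128). Near-identical copies in this region make the counts of single genes uncertain. The count rose to 4 without PBS day 1 replicate 2.

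In 12 other assembly genes none passed the test at day 1, although all 12 had a positive log2 fold change (median 0.56), 6 had an unadjusted p under 0.05 and DESeq2 called 2. Of 16 ER chaperones, Hyou1, an ER chaperone of the HSP70 family, was called higher, from 108 ± 32.1 to 279 ± 54.5 CPM (log2 fold change 1.37 ± 0.38, edgeR adjusted p = 0.0199), and this call was lost without replicate 1 or replicate 2 of day 1. None of 9 class II genes was called at day 1 (edgeR; none with an unadjusted p under 0.05, and none by DESeq2), where their median was 0.32. Between days 4 and 7, by contrast, 5 of 9 class II genes fell, H2-Aa, Cd74, H2-Ab1, H2-Eb1 and H2-DMb1, with log2 fold changes of -2.13, -2.07, -1.98, -1.96 and -1.21 (edgeR, adjusted p = 0.0350 to 0.0451), a comparison in which 1.13% of all genes were called lower. The count was between 0 and 2 without any single library of day 4 or day 7 or replicate 2 or 3 of day 1, and 0 with the tag family or the thymocyte score as a covariate. The 5 epithelial markers, of which H2-Aa is one, summed to between 2520 and 3383 CPM at day 4 and between 698 and 1158 at day 7, and their part in this fall was not tested.

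**Figure D4:**
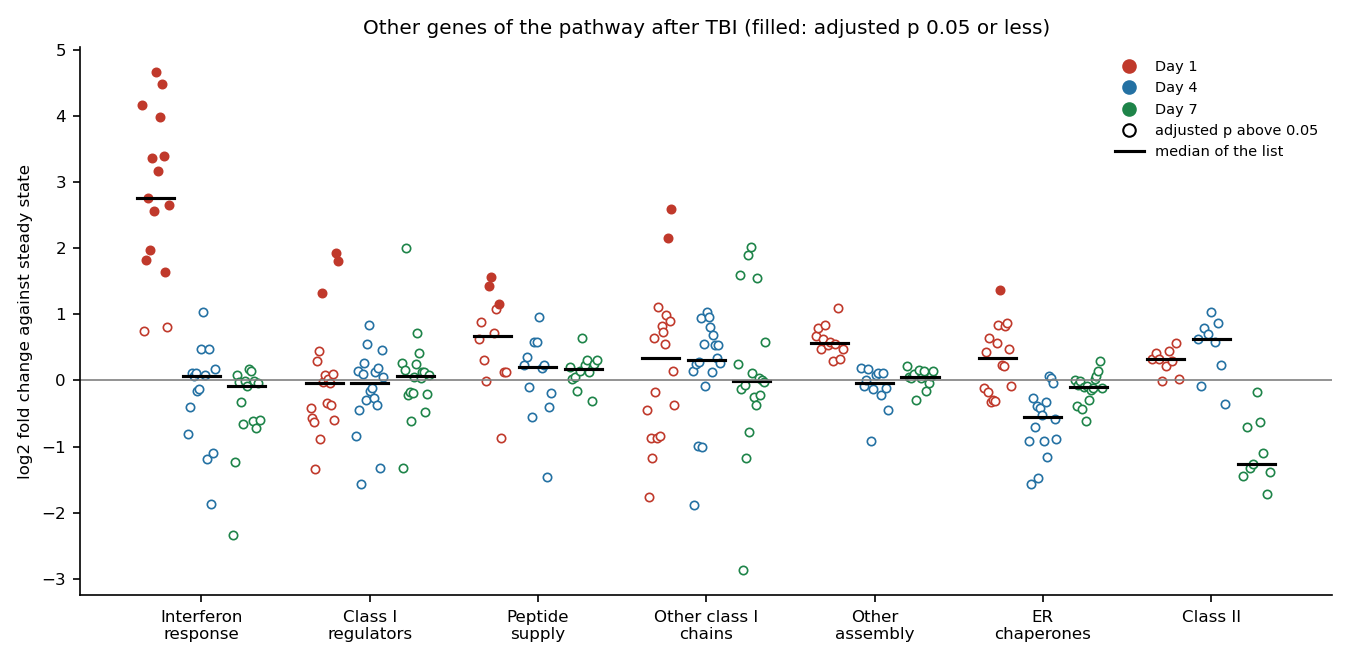
Log2 fold changes against steady state of the genes in 7 lists of the pathway and around it at days 1, 4 and 7, each point a gene, filled at an adjusted p of 0.05 or less in edgeR, with a line at the median of the list. All 22 filled points belong to day 1 and lie above 0, and 13 of them are in the interferon response list, whose median was 2.76.

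Across the 13 libraries, the genes most like each of 2 members were listed by Pearson's r on log2 CPM, as a description over libraries that share conditions. The pattern of Nlrc5 was closest to Ccl12 (r = 0.96), Fcer1g (0.95), Ccl3 (0.94), Ifi208 (0.94) and 9530082P21Rik (0.94), among 19975 other genes. Their means were highest at day 1, but Ccl12 had only 0.608 ± 0.138 CPM there and Ccl3 3.30 ± 1.14. Fcer1g, which is expressed in myeloid cells, had 1.86 ± 1.08 CPM at steady state and 6.58 ± 2.21 at day 1. Of the myeloid markers given above, Csf1r and Lyz2 did not have higher means at day 1 than at steady state. Ifi208 went from 4.35 ± 3.36 CPM at steady state to 34.1 ± 11.6 at day 1. Among the members, Tap2 (0.81) and Tap1 (0.76) were the most similar to Nlrc5, and H2-D1 (-0.36), Pdia3 (-0.34) and H2-K1 (-0.24) the least.

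For H2-K1, the closest genes outside the members were Chst15 (r = 0.92), Aldh4a1 (0.90), Scarb1 (0.88), Drp2 (0.87) and Mmp11 (0.87). All 5 had their highest mean at day 4. Scarb1, a receptor for high-density lipoprotein, had 181 ± 23.7 CPM at steady state and 312 ± 33.1 at day 4, and Mmp11, a metalloproteinase gene, 43.2 ± 12.8 and 186 ± 16.9 CPM. H2-D1 stood at rank 3 of all 19975 genes with r = 0.89, followed among the members by Tapbp (0.54), B2m (0.52) and Tap1 (0.20). In mean CPM, the heavy chains were thus highest at day 4, and Nlrc5, Tap1 and Tap2 at day 1. Against steady state, edgeR called neither the heavy chains at day 4 nor Nlrc5 at day 1.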

How the data were processed

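Per the labels and the study's methods, the authors used Trimmomatic 0.38 on paired-end reads, STAR 2.7.0e for alignment to GRCm38.p5 and featureCounts 1.6.3 for counts per gene (versions from the submitters' processing notes) with default settings, which leave out reads aligned to several places or overlapping several genes and do not use the strand. The deposited values are whole-number counts without normalization. All per-sample columns were used, and the deposited exonic length of each gene was used for TPM.

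Symbols and coordinates came from GENCODE M21 (GRCm38), which names 53274 of 53379 identifiers. Tests used edgeR 4.0.16 (R 4.3.3) on the counts, in 1 quasi-likelihood fit of all 13 libraries with condition as the term, TMM normalization and filterByExpr() (minimum count 10), with Benjamini-Hochberg adjustment over 19984 genes. Steps were tested on simulated data. Each SE is the log2 fold change over the normal quantile that matches its p-value. The thymocyte score is the mean log2 CPM of 14 marker genes. Shared 50-base stretches were counted in GENCODE transcripts. Depth per library is in the text, and SDs over libraries include counting error. Members and lists were chosen with earlier results of these data known. Genes named are all members, up to 3 called genes of the largest fold change per list, direction and comparison with steady state, and the 5 genes most similar to Nlrc5 and to H2-K1 (log2 CPM, prior count 2). Of the genes this rule names, 1 is not reported here. Genes named beyond this rule (Psmb9, Cd68, Ptprc, Coro1a, Tyrobp, S100a8, S100a9, Csf1r, Lyz2, Krt5, Itgb4, Ccl21a, Ly6d, Aire, Fezf2, Krt14, Cd80, Cxcl9, Socs1, Irf1, Rfx5, Ciita and the class II genes between days 4 and 7) were chosen after their values were seen. Alternatives were DESeq2 1.42.0, RLE normalization, no filter, only the conditions compared, the tag family or thymocyte score as a covariate, a replicate block and each library left out. Removal of each library's length trend (lowess span 0.3) and a fit of days 1, 4 and 7 alone were added after seeing the data. Python 3.11.15 with matplotlib 3.10.9 was used for tables and plots.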

Additional observations from a re-analysis of the deposited data

Results flagged for a closer look

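Of 22 members and named pathway genes examined at steady state, 2 had a library far from the other 3 by Dixon's ratio, and chance flags about 1 in 20. Both were highest in PBS day 1 replicate 2. Cxcl10 had 88.9 CPM there, against 19.3 to 29.2 in the others. Ifit3 had 81.4 CPM, against 65.0 to 66.1. At day 1 the lowest libraries had 434 CPM of Cxcl10 and 1232 CPM of Ifit3.

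The change after TBI differed between days 1 and 7 for 2 members by a test of the difference itself. For Tap1 the log2 difference of day 7 from day 1 was -1.56 (edgeR, adjusted p = 0.00242), with all 3 libraries of day 7 below all 3 of day 1. For Nlrc5 it was -1.82 (edgeR, adjusted p = 0.0385), also with all 3 below.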

How the results depend on the processing

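The number of members called (2, 0 and 0 at days 1, 4 and 7 against steady state, 0 and 2 from day 1 to days 4 and 7, and 0 from day 4 to day 7, in that order) moved under these settings. At day 1 it was 1 without the filter and 1 with only both conditions in the fit, and 3 with DESeq2 or with the thymocyte score added. With DESeq2 it was 2 at day 4, 3 from day 1 to day 4, 4 from day 1 to day 7 and 2 from day 4 to day 7. From day 1 to day 4 it was 1 without the filter and 1 with only both conditions. With each library left out in turn it ranged from 1 to 3 at day 1, from 0 to 1 from day 1 to day 4, from 1 to 2 from day 1 to day 7 and from 0 to 1 from day 4 to day 7, and was 0 to 0 at days 4 and 7. Replicate numbers of days 1, 4 and 7 did not pair the libraries: same-numbered libraries had mean correlations of -0.51, -0.14 and 0.07 between days, and 1 of 9 libraries was closest to its own number. With the replicate block the count from day 1 to day 7 was 1 (Tap1), with Nlrc5 at -1.90 (edgeR, adjusted p = 0.0605), and no other count changed. The steady-state columns carry no numbers of the labels, so no block was fitted against them.

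Of 24 log2 fold changes of members that were called or whose libraries did not overlap, 470 values under the alternatives kept direction and side of the threshold, 20 lost the call (10 for Tap2 at day 1 and 10 for Nlrc5 from day 1 to day 7) and 19 gained it. The direction turned for Tapbp from day 1 to day 7, which was not called, at 0.13 after adding the thymocyte score as a covariate. The cause of these moves was not tested. Differences such as that of Tapbp at day 1, 0.35 with an SE of 0.25, were too small to be resolved with 3 against 4 libraries.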

Other observations

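Between days after TBI, the interferon response list held many calls. Of its 15 genes, 13 were called lower at day 4 than at day 1 and 14 lower at day 7 than at day 1, where 1.07% and 4.45% of all genes were called lower. Cxcl9, called in neither comparison with steady state nor from day 1 to day 4, had a log2 fold change of -1.98 from day 1 to day 7 (edgeR, adjusted p = 0.00412). Among ER chaperones, 3 of 16 fell from day 1 to day 4, named here after their values were seen: Hspa5, the ER chaperone BiP (log2 fold change -1.74), Hyou1 (-1.71) and Dnajb11, a BiP cofactor (-1.34) (edgeR, adjusted p = 0.0328, 0.0143 and 0.00590). That count ranged from 0 to 4 when a library was left out.

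H2-Q1 and H2-Q2, class I genes of the Q region, went the other way. From day 1 to day 7, H2-Q1 rose from 1.36 ± 0.211 to 9.25 ± 8.09 CPM (mean ± SD, n = 3, log2 fold change 2.76 ± 0.93, edgeR adjusted p = 0.0431) and H2-Q2 from 6.62 ± 1.54 to 48.1 ± 43.3 CPM (2.86 ± 0.88, edgeR adjusted p = 0.0250), while H2-T22, H2-T23, H2-T24 and H2-Q6 fell. The libraries of day 7 ran from 2.34 to 18.2 CPM for H2-Q1 and from 9.44 to 95.0 CPM for H2-Q2, so the lowest was close to the highest of day 1 (1.49 and 8.34 CPM). These genes were also named after their values were seen, and with a library left out the list's count of 6 ranged from 2 to 10. The summed thymocyte markers rose in the same comparison, and 13 of 14 were called higher. Their part in the rise of H2-Q1 and H2-Q2 was not tested.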
